A study of Mus musculus with 16 samples.

Results

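The genes of the zona pellucida glycoproteins, Zp1, Zp2 and Zp3, were followed through oocyte growth in expression and in DNA methylation. They were taken by name from a table of 25965 mouse reference genes, and all 3 were found, each on a single row, and passed the filter on low values. All samples were oocytes of wild-type mice, C57BL/6 by the labels and C57BL/6Babr by the study's methods, with no treatment, sorted by diameter. RNA-seq libraries in duplicate, A and B, came from oocytes of 10–30 µm (mice of postnatal days 5–7), 40–45 µm (days 7–12), 50–55 µm (days 9–14) and 60–65 µm (days 13–16), and 1 RNA column came from germinal vesicle (GV) oocytes at day 20. Methylation was measured by reduced representation bisulphite sequencing (RRBS), in duplicate at all growing sizes except 10–30 µm, and by 1 library of post-bisulphite adaptor tagging (PBAT) at 60–65 µm. Each library was made from a pool of oocytes picked by hand from digested ovaries and washed to remove other cells, so replicates are pools and not single animals.

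The zona pellucida is the extracellular coat that the growing oocyte builds around itself. Zp2 and Zp3 proteins pair into long filaments, and Zp1 protein links these filaments to one another. Each protein is made in the endoplasmic reticulum, where N-linked glycans are attached, carries further sugars from the Golgi, is cut by a furin-like convertase and is released at the cell surface. Zp2 carries the region that sperm bind, and after fertilisation the protease ovastacin, the product of Astl, cleaves Zp2. Transcription of all members in the oocyte is known to depend on Figla, a basic helix-loop-helix factor that acts with a partner such as the product of Tcf3 at E-boxes before the start of each gene.

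On the GRCm38 build, Zp1 lies on the minus strand at chr19:10914287-10920632, Zp2 on the minus strand at chr7:120132361-120145290 and Zp3 on the plus strand at chr5:135980099-135988624. The annotated transcript of Zp3 with the same ends as the table has 8 exons that sum to 1323 bases. RefSeq promoter sequence was held for Zp3 and for neither Zp1 nor Zp2. The 244 bases before the start of Zp3, at chr5:135979855-135980098 on the plus strand of GRCm38, are given because this is the stretch in which an E-box would be sought and in which methylation was measured. The letters CANNTG, which read as the same pattern on both strands, are in capitals.
Zp3: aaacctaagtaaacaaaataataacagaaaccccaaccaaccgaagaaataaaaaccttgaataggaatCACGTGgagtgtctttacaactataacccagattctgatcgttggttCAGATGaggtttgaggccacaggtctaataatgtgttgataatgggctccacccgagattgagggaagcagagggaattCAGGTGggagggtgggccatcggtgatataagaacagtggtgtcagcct
The window holds 3 matches to CANNTG. The first, with the letters CACGTG, ends 170 bases before the start, and the last ends 44 bases before it. CACGTG is present in 5.82% of the 32851 promoter windows of the same length and position, and at least 3 matches to CANNTG are present in 11.7% of them. TATAA occurs at 154 and at 23 bases before the start, and 22.5% of all windows hold it on either strand. A match of this kind describes the letters only.

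The RNA values are RPKM, reads scaled to exon length and library size, as deposited. For genes of a single exon, values fell on whole multiples of what 1 read is worth, from 99.4% to 100% of them within 0.05 of a whole number, and from the same step the members' values stood for 43790 to 470038 reads, so that the counting error was at most 0.478%. The labelled cell type was clear, with Gdf9, an oocyte growth factor, at 419 to 580 RPKM in the growing libraries. Among 16 granulosa cell markers the summed level was 3.04 to 3.26 RPKM at 10–30 µm and 11.97 to 13.4 RPKM at 60–65 µm, led by Esr2 and Nr5a2, while the defining marker Foxl2 was at most 0.0642 RPKM in the growing libraries. Amh, another defining marker, had 0.0967 and 0.0907 RPKM at 10–30 µm and 0.229 and 0.189 at 60–65 µm. Summed theca and stroma markers reached at most 3.95 RPKM and blood and immune markers at most 7.34 RPKM in growing oocytes. The part of these cells in the results on the members was not tested.

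All members were among the most abundant transcripts of the oocyte at every size. Zp2 stood at 1068 and 1074 RPKM at 10–30 µm, at 998 and 1118 at 40–45 µm, at 848 and 875 at 50–55 µm, and at 620 and 734 at 60–65 µm (A and B in that order), and at 559 in GV oocytes. It ranked between place 4 and place 6 of 25965 genes in all 9 columns. All libraries of the smaller 2 classes lay above all libraries of the larger 2 classes and above the GV column. Zp3 stood at 772 and 840 RPKM at 10–30 µm, at 722 and 962 at 40–45 µm, at 703 and 746 at 50–55 µm, and at 595 and 650 at 60–65 µm, with 523 in GV oocytes. It ranked between place 5 and place 7, and its 10–30 µm libraries lay within the range of the 40–45 µm libraries. Zp1 was lower, with 222 and 292 RPKM at 10–30 µm, 283 and 359 at 40–45 µm, 278 and 309 at 50–55 µm, 256 and 272 at 60–65 µm and 223 in GV oocytes. It ranked between place 18 and place 29, and its classes overlapped. In every column Zp2 was the highest of the members and Zp1 the lowest, but at 60–65 µm the means of Zp2, 677 ± 81.0 RPKM (SD, n = 2), and Zp3, 623 ± 38.8 (SD, n = 2), were closer than the spread between libraries. Together the members took 2.28 ± 0.132% of the summed RPKM at 10–30 µm, 2.35 ± 0.320% at 40–45 µm, 2.01 ± 0.0975% at 50–55 µm and 1.66 ± 0.1402% at 60–65 µm (SD, n = 2 each), and 1.41% in GV oocytes.

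**Figure D1:**
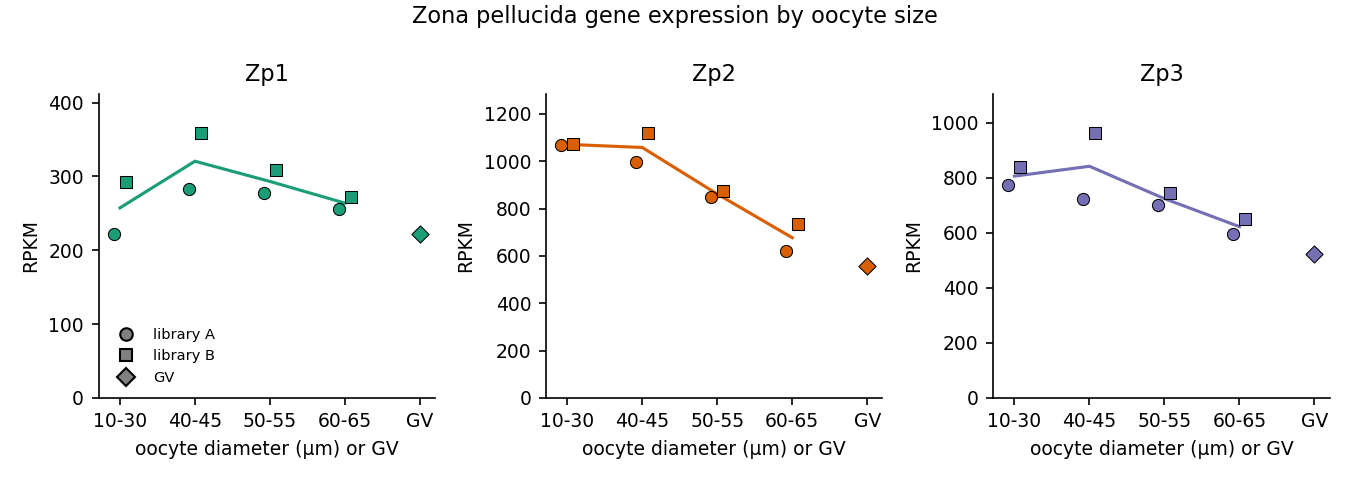
RPKM of Zp1, Zp2 and Zp3 (vertical axes, from 0) in the 4 size classes and GV oocytes (horizontal axes), with circles for libraries A, squares for libraries B, diamonds for GV and a line through the class means. Zp2 falls from a mean of 1071 RPKM at 10–30 µm to 677 at 60–65 µm, whereas Zp1 has a mean of 257 at the first and 264 at the last of these sizes.

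Changes between size classes were tested with limma on log2(RPKM + 0.1) for 10518 genes, with Benjamini-Hochberg adjustment over all of them, so that log2 changes here are on that scale. From 10–30 to 60–65 µm, Zp2 fell by 0.64 ± 0.13 (SE; adjusted p = 0.00266), to 0.641 of its level at 10–30 µm. Zp3 had a change of -0.35 ± 0.14 (adjusted p = 0.0630) and Zp1 a change of 0.07 ± 0.15 (adjusted p = 0.684), with a 95% interval for Zp1 of -0.27 to 0.42. Thus 1 of 3 members was called lower and 0 were called higher over the whole of growth, where 30.5% of all tested genes fell and 32.7% rose. For Zp3 the call turned on the scaling of the libraries, since its adjusted p was 0.0489 with upper-quartile scaling. It was also called without the 40–45 µm library A (adjusted p = 0.0312) or B (adjusted p = 0.0317). Without the 10–30 µm library A the change of Zp1 was -0.0925. The calls of Zp2 in this and the next comparison were kept without any 1 library (adjusted p from 0.00366 to 0.0438) and lost when no filter on low values was used (adjusted p = 0.1088 and 0.1003). RPKM is a share of each library, so a lower value need not mean fewer molecules in an oocyte whose total RNA grows with its size, and in pools fewer cells of a kind cannot be told apart from less RNA per cell. The p-values measure the spread between these libraries, for which it was not stated that A and B came from separate animals.

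The second comparison over several steps spanned the sizes at which methylation was also measured. Its first class, 40–45 µm, had the highest mean RPKM of Zp1 and Zp3. On the scaled log2 values that were tested it was also the highest class for Zp2, by 0.11 ± 0.13 (SE) over 10–30 µm. A fall of any member from 40–45 µm is therefore favoured by where it starts. From there to 60–65 µm, Zp2 fell by 0.76 ± 0.13 (adjusted p = 0.00314 by limma), to 0.592 of its level, and Zp3 fell by 0.53 ± 0.14 (adjusted p = 0.0210 by limma), to 0.692 of its level. Zp1 had a change of -0.38 ± 0.15 (adjusted p = 0.0810 by limma). In this comparison 2 of 3 members fell and 0 rose, against 21.7% and 16.4% of all tested genes, although without further scaling 1612 of 3906 called genes fell in place of 2284 of 4014. With no filter on low values neither Zp2 nor Zp3 was called. The call of Zp3 was lost without the 40–45 µm library B (adjusted p = 0.106), the 60–65 µm library A (adjusted p = 0.168) or the 60–65 µm library B (adjusted p = 0.0548), and without further scaling (adjusted p = 0.0545). Without the 10–30 µm library A or B, by contrast, Zp1 was called as well (adjusted p = 0.0481 and 0.0480).

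Between neighbouring sizes 0 of 3 members were called. From 10–30 to 40–45 µm the changes were 0.45 ± 0.15 for Zp1, 0.11 ± 0.13 for Zp2 and 0.18 ± 0.14 for Zp3, where 24.2% of all genes were called in either direction. Zp1 was called here without the 10–30 µm library B (adjusted p = 0.0257 by limma). From 40–45 to 50–55 µm they were -0.18 ± 0.15 for Zp1, -0.36 ± 0.13 for Zp2 and -0.26 ± 0.14 for Zp3, where 9.85% were called. From 50–55 to 60–65 µm they were -0.20 ± 0.15, -0.40 ± 0.13 and -0.27 ± 0.14 in the same order. In this last step limma called 0% of all genes, with 1473 genes at an unadjusted p under 0.05, Zp2 among them (unadjusted p = 0.0136 by limma). A test of any difference among the 4 classes called 1 of 3 members, Zp2 (adjusted p = 0.00490 by limma), with adjusted p = 0.0600 for Zp3 and 0.1002 for Zp1, where 54.9% of all genes were called. With no filter on low values the call of Zp2 in this test was lost. In that test Zp1 was also called without the 10–30 µm library B (adjusted p = 0.0394), and Zp3 without the 40–45 µm library A (adjusted p = 0.0186), by limma.

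The members did not keep their proportions. The ratio of Zp1 to Zp2 does not depend on how libraries are scaled, and it was 0.208 and 0.272 at 10–30 µm, 0.283 and 0.321 at 40–45 µm, 0.328 and 0.353 at 50–55 µm, 0.413 and 0.371 at 60–65 µm, and 0.398 in GV oocytes. Among the 4 growing classes, no library of a larger size lay below a library of a smaller size. The rise was present within the A libraries and within the B libraries taken alone. Against the order of the 4 classes, over 8 libraries, Pearson's r was 0.924 and Spearman's rho 0.976 (exact permutation p = 0.00079 for each, the smallest this design allows; 0.0012 after adjustment over 3 ratios). With the 2 libraries of 10–30 µm left out r was 0.896, and with those of 60–65 µm left out it was 0.869. The ratio of Zp1 to Zp3 rose from 0.318 ± 0.0424 (SD, n = 2) at 10–30 µm to 0.382 ± 0.0134 at 40–45 µm, and that of Zp3 to Zp2 had means of 0.753, 0.792, 0.841 and 0.923 over the 4 classes. For Zp3 to Zp2, r was 0.821 and rho 0.830 (exact permutation p = 0.0159 and 0.0198). Without the 60–65 µm libraries its r was 0.636, and the 40–45 µm libraries, at 0.724 and 0.861, spanned most of its range. For Zp1 to Zp3, r was 0.881 and rho 0.976 (exact permutation p = 0.00079 for each). The permutation treated the 8 libraries as exchangeable, although A and B were not stated to come from separate animals. Mouse age rose with size, so the order of the classes is also one of age. The test of these ratios was not among those planned.

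**Figure D2:**
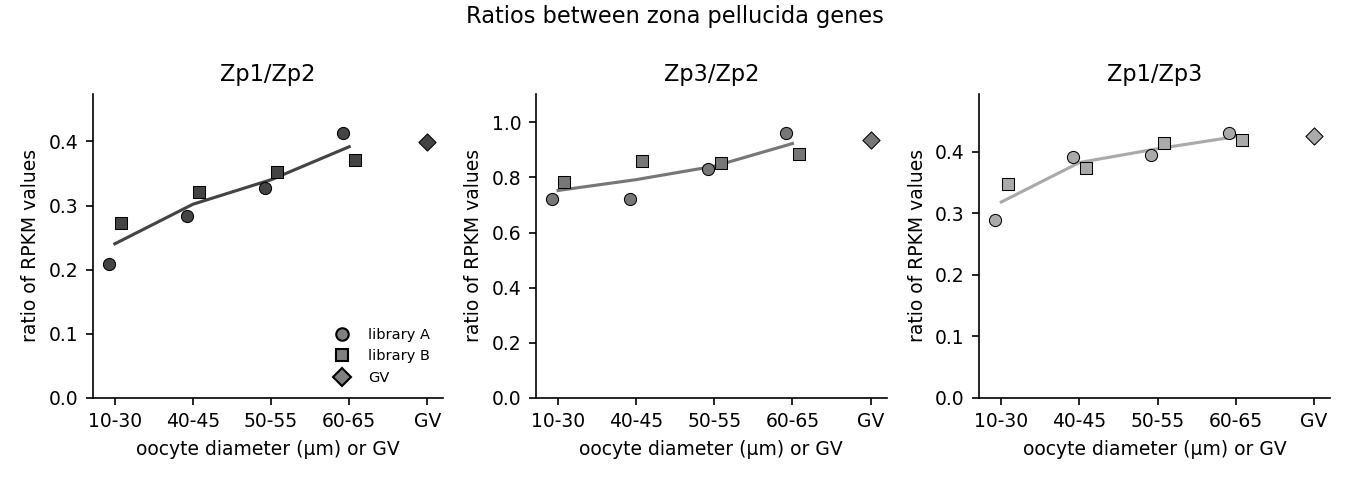
Ratios between the RPKM values of the members (vertical axes, from 0) in the 4 size classes and GV oocytes (horizontal axes), with circles for libraries A, squares for libraries B, diamonds for GV and a line through the class means. The Zp1/Zp2 ratio rises from a mean of 0.240 at 10–30 µm to 0.392 at 60–65 µm, with GV at 0.398.

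In GV oocytes, which entered no test because there was 1 column, all members were below both 60–65 µm libraries. The GV value was 0.843 of the 60–65 µm mean for Zp1, 0.825 for Zp2 and 0.840 for Zp3.

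The genes whose profile over the 9 RNA columns was most like that of a member differed from member to member. Among 1863 genes of at least 10 RPKM on average, and on log2(RPKM + 0.1), the closest to Zp1 was Dnmt1, the maintenance DNA methyltransferase (Pearson's r = 0.983), and Haus4 (r = 0.941) and Tle6 (r = 0.925) were also among the closest. Dnmt1 had 328 and 416 RPKM at 10–30 µm, 398 and 486 at 40–45 µm, 401.5 and 454 at 50–55 µm and 376 and 389 at 60–65 µm. The closest to Zp2 were Dynll1, a dynein light chain (r = 0.994), and Kif4, a kinesin (r = 0.993), followed by AC111044.1, Kdm1b, a histone demethylase of oocytes, and Mlx. Kdm1b fell from 99.2 and 115 RPKM at 10–30 µm to 65.5 and 73.7 at 60–65 µm. The closest to Zp3 were Tuba1b, Tcn2, Gstp1, Nlrp5 and Tuba1c. Between members r was 0.525 for Zp1 and Zp2 and 0.719 for Zp1 and Zp3. The r of Zp2 and Zp3 was 0.940. These values are a description, since all genes share the 9 columns and their depth.

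Of the regulators known to act on the members, Figla fell and Tcf3 was not called. Figla stood at 52.7 and 45.0 RPKM at 10–30 µm, 28.7 and 28.8 at 40–45 µm, 16.26 and 15.99 at 50–55 µm, 11.6 and 12.6 at 60–65 µm and 8.87 in GV oocytes, so that each class lay wholly below the one before it. From 10–30 to 60–65 µm it fell by 1.97 ± 0.11 (SE; adjusted p = 7.6e-06 by limma), while Zp1 had a change of 0.07. Tcf3, the partner of Figla, ranged from 6.29 to 9.84 RPKM over the growing libraries and had a change of -0.30 (adjusted p = 0.134 by limma). Of 15 regulators of oocyte transcription that could be tested, 8 fell and 2 rose over the whole of growth, where 30.5% of all tested genes fell and 32.7% rose, with a median of -0.39 against 0.02 for all tested genes. Beside Figla, Sohlh1 (-4.93) and Sohlh2 (-2.53), basic helix-loop-helix factors of early follicles, fell, as did Tcf12, Tbpl2 and Id2 and Id3, which block such factors. Id1, also among the 8, passed the filter only through its 10–30 µm libraries. Foxo3 (0.71) and Gtf2a1l (0.85) rose, and Nobox (0.08) and Lhx8 (-0.08) were not called.

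**Figure D3:**
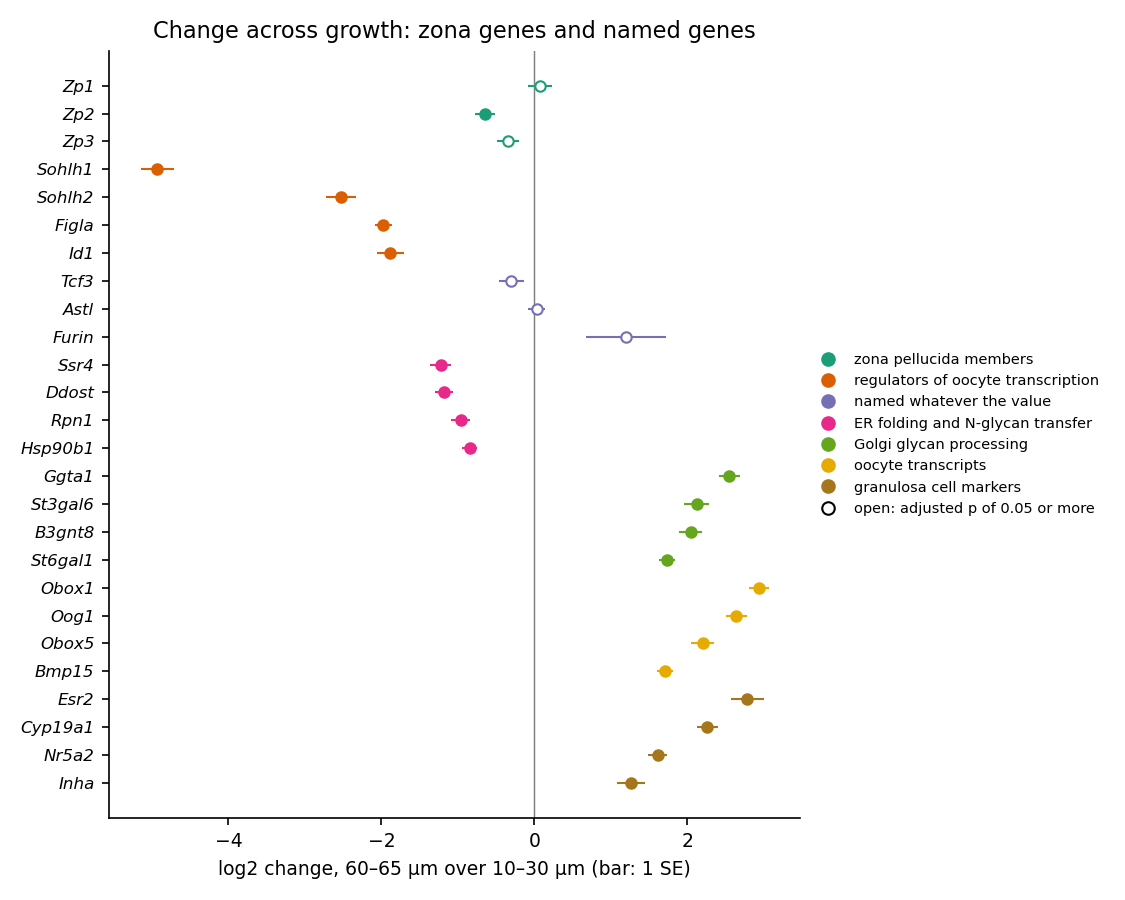
Log2 change from 10–30 to 60–65 µm, (horizontal axis, on the log2(RPKM + 0.1) scale) of the members and of genes from the lists, with points for limma's estimates, bars for 1 SE, colours for the lists and open points for genes that were not called. Id1, St3gal6, B3gnt8, Cyp19a1 and Inha entered the test only through the sizes at which they are higher. Zp2 lies at -0.64, whereas Figla lies at -1.97 and Zp1 at 0.07.

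Genes of the route that the members' proteins take were counted in lists for the endoplasmic reticulum and for the Golgi, and the difference between the lists was not tested. Of 30 genes for protein folding and N-glycan transfer in the endoplasmic reticulum, 19 fell, 2 rose and 9 were not called from 10–30 to 60–65 µm, with a median of -0.51, where 30.5% of all tested genes fell and 32.7% rose. Ssr4 (-1.22), a part of the translocon, Ddost (-1.18) and Rpn1 (-0.96), subunits of the oligosaccharyltransferase, and the chaperone Hsp90b1 (-0.85) fell. The number that rose was 1 with upper-quartile scaling and with the trimmed mean over tested genes only. The Golgi list holds glycosyltransferases, mannosidases such as Man2a2, which remove sugars, and C1galt1c1, a chaperone of a glycosyltransferase. Of its 43 genes 30 were tested, and 17 of them rose, 3 fell and 10 were not called, with a median of 0.36. Of the 17, 15 reached 0.5 RPKM in at least 1 library of 10–30 µm, and St3gal6 and B3gnt8 were tested only through the larger sizes. With upper-quartile scaling 14 of the Golgi genes rose and 4 fell. Ggta1 (2.55), which adds the alpha-galactose cap, and the sialyltransferase St6gal1 (1.73) rose, the latter from 1.41 and 1.67 RPKM to 5.32 and 5.17. From 40–45 to 60–65 µm, where Zp2 and Zp3 fell, 16 of the genes of the endoplasmic reticulum fell and 1 rose, and 10 of the Golgi genes rose and 1 fell, where 21.7% of all tested genes fell and 16.4% rose. Without further scaling 12 of the genes of the endoplasmic reticulum fell and 1 rose, and 13 of the Golgi genes rose and 1 fell. Furin, a convertase of the kind that cuts the members, had a change of 1.20 ± 0.52 (adjusted p = 0.0752 by limma), with libraries A and B at 1.89 and 6.21 RPKM at 10–30 µm.

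Of the other genes with a ZP domain or a place in the zona, 4 were tested. Umodl1 (2.30) and Tgfbr3 (1.64) rose, and Zpbp, which encodes a protein of sperm, had 0.540 and 0.506 RPKM at 10–30 µm, the only libraries through which it passed the filter, and 0.0470 and 0.0468 at 60–65 µm. Among 4 genes of egg coat cleavage and sperm binding, Astl, whose product cleaves Zp2, had 167 and 161 RPKM at 10–30 µm, 160 and 169 at 60–65 µm and a change of 0.03 (adjusted p = 0.826 by limma). Folr4 (1.89), which encodes the receptor for sperm on the egg surface also named Juno, rose, and Cd9 (-0.09) was not called. Cd81 passed the filter only through its 10–30 and 40–45 µm libraries. It had 1.98 and 1.58 RPKM at 10–30 µm and 0.331 and 0.263 at 60–65 µm. Among 20 other transcripts typical of oocytes, 11 rose and 5 fell over the same interval, where 32.7% of all tested genes rose and 30.5% fell, with a median of 0.44. Bmp15 (1.71), an oocyte growth factor, and Obox1 (2.93) rose. Padi6 (-0.82) and Nlrp5 (-0.45), which belong to the subcortical maternal complex or its lattices, fell, and Tle6 (-0.09, adjusted p = 0.536 by limma), of the same complex, was not called. From 40–45 to 60–65 µm the balance differed, as 4 of these 20 transcripts rose and 7 fell, with a median of 0.03. Tle6 was among those that fell (-0.36, adjusted p = 0.0455 by limma). In that comparison 16.4% of all tested genes rose and 21.7% fell. From 10–30 to 60–65 µm, 23 of the 87 genes of at least 100 RPKM on average fell and 27 rose, shares near those of all tested genes. Their median was 0.06, and 14 had a larger fall than Zp2. Of 16 granulosa cell markers 4 were tested. Esr2 and Nr5a2 rose, and Inha and Cyp19a1 passed the filter only through larger oocytes, in which they are higher. The other 12 were not tested. Among these, Foxl2 had 0.0639 and 0.0424 RPKM at 10–30 µm and 0.0642 and 0.0373 at 60–65 µm. Wt1, Gatm and Fst, like Foxl2, overlapped between these sizes. Amh, Amhr2, Fshr, Gja1, Kitl, Inhba, Inhbb and Hsd17b1 were higher in both 60–65 µm libraries than in both 10–30 µm libraries. Fshr had 0.0436 and 0.0545 RPKM at 10–30 µm and 0.238 and 0.229 at 60–65 µm. Kitl had 0.192 and 0.1397 RPKM at 10–30 µm and 0.495 and 0.409 at 60–65 µm. Of 11 markers of theca and stroma, 3 collagen genes were tested, all of them under 0.5 RPKM in both 60–65 µm libraries, so that no count is drawn from them. Of the blood and immune markers 2 were tested, Pecam1 and C1qb, and both rose. Whether these cells have a part in the changes of the members was not tested.

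DNA methylation at the members was low to intermediate at 60–65 µm, in the 1 PBAT library, whose values are therefore without a replicate. Each value is the mean over cytosines of CpGs with at least 5 reads, and intervals are Wilson's 95% intervals of the pooled calls, which cover counting error only. Within 1 kb of the start, Zp1 had 4.76% (7 cytosines, 2 of 46 calls, interval 1.20 to 14.5%) and Zp3 10.7% (25 cytosines, 17 of 166 calls, interval 6.49 to 15.8%). The median over 19684 genes was 3.87%, and 61.8% and 86.9% of them were lower than Zp1 and Zp3. In the same library 3.45% of calls on the mitochondrial genome were methylated, a level near that median and inside the interval of Zp1. How much of a value near this level is methylation was not tested. The side of the median on which Zp1 lay turned with the setting, since it had 1.75% with 1 read as the minimum (9.18% of genes lower), 3.03% with 3 reads (29.0% lower), 3.57% with both strands of a CpG summed (39.7% lower) and 6.67% within 500 bases of the start (79.8% lower). Zp2 had 1 cytosine of that depth in this window, and over all reads it had 0 methylated of 59 calls at 28 cytosines, which allows up to 6.11%. The value of Zp3 depended on depth and window, at 5.75% with 1 read as the minimum and 16.5% within 500 bases of the start. Upstream of its start the first 1 kb held 25.6% over 3 cytosines (4 of 16 calls), and the first 1 kb of the gene held 8.66% over 22 cytosines (13 of 150 calls). In the printed 244 bases, pooled over all reads with no minimum, 4 of 18 calls were methylated (22.2%, interval 9.00 to 45.2%), at 7 of the 10 cytosines of 5 CpGs, of which 2 had at least 5 calls. At 1 of them 2 of 5 calls were methylated, the cytosine 172 bases before the start, inside CACGTG.

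Over the gene body, from 1 kb after the start to the end of the gene, methylation was 15.5% for Zp1 (56 cytosines, 63 of 406 calls, interval 12.3 to 19.4%), 20.8% for Zp2 (11 cytosines, 13 of 62 calls, interval 12.7 to 32.6%) and 16.4% for Zp3 (53 cytosines, 61 of 360 calls, interval 13.4 to 21.2%). These intervals overlap, so no difference among the members was detectable at this depth. With 10 reads as the minimum the body of Zp3 had 27.2% over 8 cytosines (23 of 86 calls). Each was below the median of 23.5% over 20128 genes, with 41.2%, 47.3% and 42.4% of genes lower. For Zp2 this turned with the setting, at 23.7% against a median of 21.6% with 1 read as the minimum and 19.1% against 15.2% over the whole annotated gene. No cytosine of at least 5 reads in any member reached 75%, and the highest were 66.7% in Zp1, 60% in Zp2 and 60% in Zp3. In the 10 kb after the gene the values were 18.4%, 28.2% and 5.13% for Zp1, Zp2 and Zp3, with 31 of 598 calls methylated for Zp3. Of those 598 calls, 327 lay in the 1 bin from 14 to 15 kb after the start of Zp3, near the start of its neighbour Dtx2, with 8 methylated, and without that bin 23 of 271 calls were methylated (8.49%, interval 5.72 to 12.4%).

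**Figure D4:**
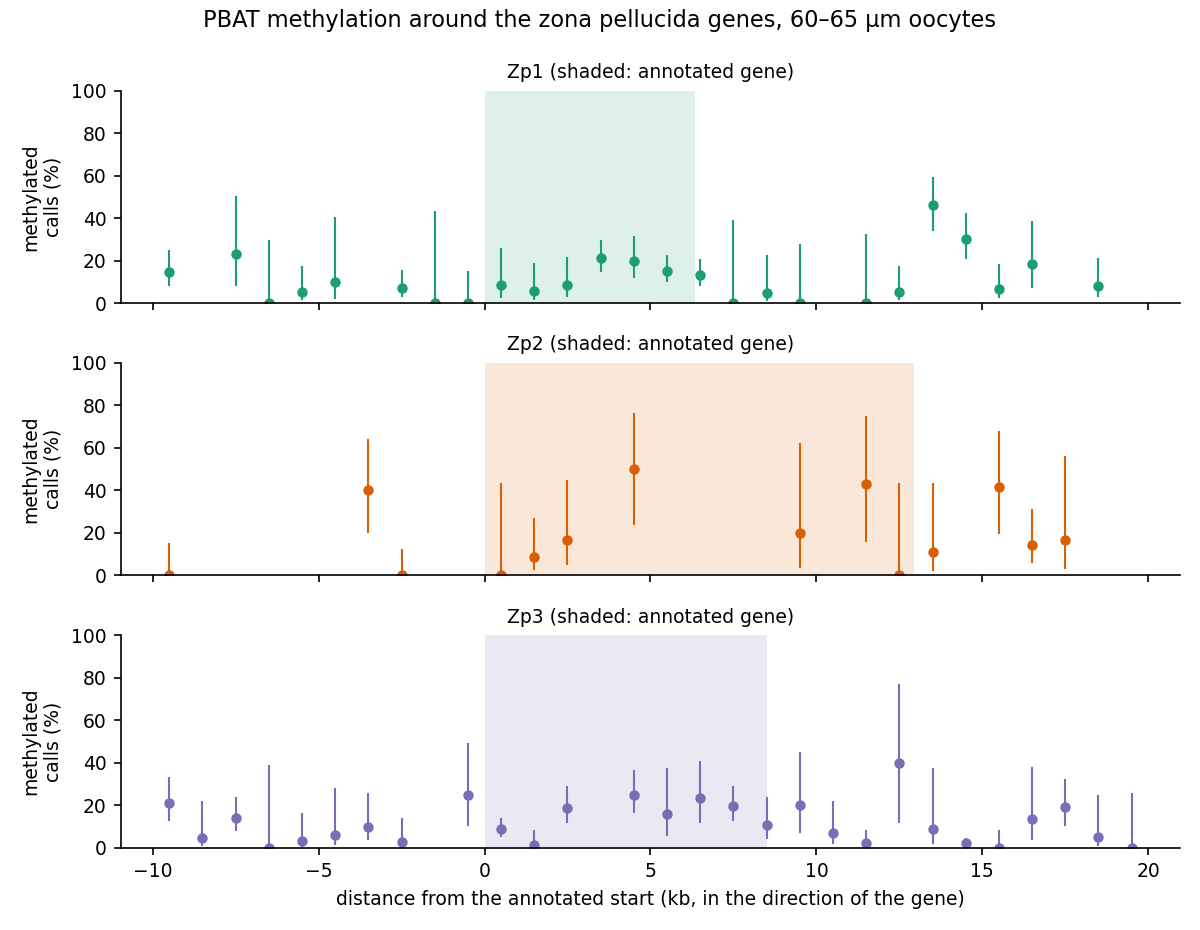
PBAT methylation at 60–65 µm (vertical axes, percent) in 1 kb bins by distance from the start of each member, in the direction of transcription (horizontal axes, kb), with points for the share of methylated calls pooled over cytosines of at least 5 reads, bars for Wilson's 95% intervals, and shading over the gene. In Zp1 the bin from 3 to 4 kb has 23 of 109 calls methylated, and in Zp3 the first bin of the gene has 13 of 150.

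The body values were set beside expression in the same size class. The median body methylation was 8.15% for 8676 genes under 0.1 RPKM, 30.6% for 3545 genes from 0.1 to 1 RPKM, 50.4% for 6150 genes from 1 to 10 RPKM and 44.2% for 1680 genes from 10 to 100 RPKM. For the 77 genes of at least 100 RPKM, which include the members, it was 21.9%, with quartiles of 11.4 and 31.8%, and 46 of the 77 were under 25%, as all members were. Among these 77 genes, Zp1 ranked at place 27 from the lowest, Zp3 at 28 and Zp2 at 35. For genes of 5 to 15 kb, a range that holds all members, the median of the 28 genes of at least 100 RPKM was 22.2%. The members thus lay near the middle of the most abundant transcripts and below most genes of 1 to 100 RPKM. Genes share this 1 library and its depth, so these values are given as a description.

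**Figure D5:**
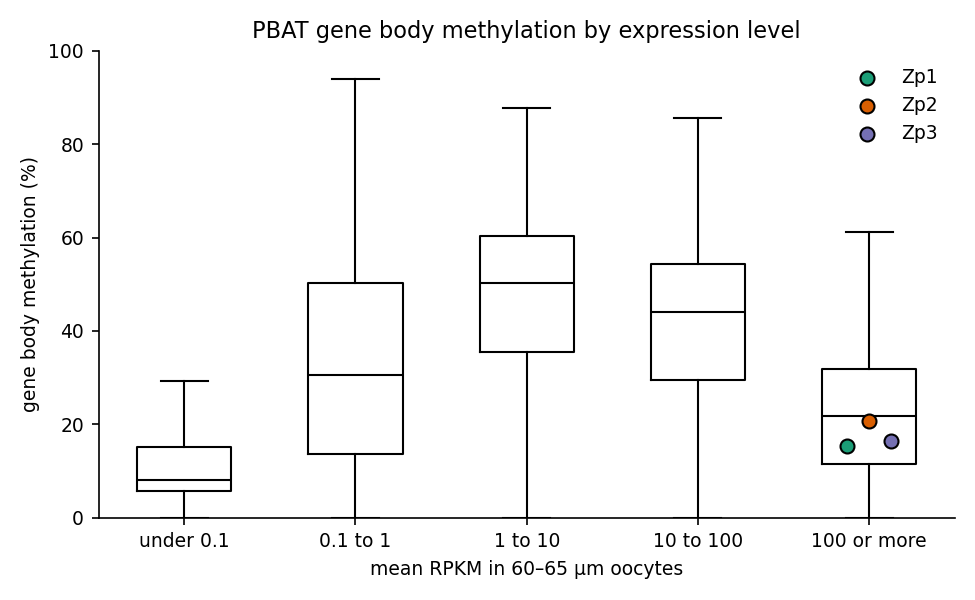
Gene body methylation in PBAT at 60–65 µm (vertical axis, percent) by expression at the same size (horizontal axis, classes of RPKM), with boxes for the median and quartiles of the genes in each class, whiskers to the outermost genes within 1.5 interquartile ranges, genes beyond them not drawn, and coloured points for the members. The class of at least 100 RPKM has a median of 21.9%, and the members lie at 15.5% (Zp1), 20.8% (Zp2) and 16.4% (Zp3).

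RRBS, which reads only part of the genome near cut sites of a restriction enzyme, covered few cytosines of the members. In all 6 libraries it held the same 2 cytosines of Zp3, at positions 135980219 and 135980337 of chromosome 5, both in coding exon 1 of 8. Their mean methylation was 2.26 and 2.33% at 40–45 µm, 3.59 and 0% at 50–55 µm and 3.04 and 0% at 60–65 µm (A and B in that order). The methylated calls were 2 of 92, 6 of 203, 4 of 137, 0 of 58, 4 of 123 and 0 of 104, and the upper limits of the Wilson intervals lay between 3.56 and 8.06%. At the same 2 cytosines PBAT had 0 of 6 and 0 of 3 calls methylated, so its methylated calls within 1 kb of that start lay at other cytosines. With 1 read as the minimum, the 40–45 µm library A had a mean of 40.9% over 5 cytosines but 5 of 97 calls methylated. No change with size was detectable here, while methylated calls of the whole libraries were 2.999 to 3.29% at 40–45 µm and 7.93 to 8.82% at 60–65 µm. For Zp1 the 40–45 µm library A had 0 of 20 calls in the body, and for Zp2 it had 0 of 12 calls near the start.

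The genes next to the members were far less abundant. Within 30 kb of Zp3, Srcrb4d had 5.02 to 7.57 RPKM and Dtx2 14.7 to 23.1 RPKM over the 9 columns. Next to Zp2, Anks4b had 10.1 to 16.1 RPKM and Tmem159 at most 0.992, and next to Zp1, Prpf19 and Ccdc86 had at most 3.25 and 3.64 RPKM.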

How the data were processed

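Libraries were prepared from oocytes pooled by diameter, and the deposited files were used as given. The RNA table holds RPKM values per reference gene, which the authors made from strand-specific total RNA reads aligned with TopHat2 2.0.9 to GRCm38. The RNA reads were trimmed with Trim Galore 0.2.8. The study's methods name Cufflinks for transcript quantification and SeqMonk for analysis of RNA-seq data, and which of them gave the RPKM values is not stated there. The methylation files hold methylated and unmethylated read counts and the percent methylation per cytosine of CpGs, which the authors deposited after Trim Galore 0.3.5 and Bismark (0.14.0 for RRBS, 0.10.0 for PBAT). All PBAT positions lay on C or G of GRCm38.

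From the RPKM values, libraries were scaled by a trimmed mean (30% by ratio and 5% by level at each end), the 10518 genes reaching 0.5 RPKM in any 2 growing libraries were kept, and log2(RPKM + 0.1) was tested with limma 3.58.1 in R 4.3.3, with 1 mean per size class, a variance trend and a threshold of 0.05 after Benjamini-Hochberg adjustment. An exact permutation test of 2 libraries against 2 cannot go below 0.333. GV oocytes, in 1 column, were given as values. PBAT means used cytosines of at least 5 reads and genes of at least 5 such cytosines, and the start window was 1 kb to each side. PBAT held 99039028 calls with 22.2% methylated (3.45% on the mitochondrial genome). Intervals are Wilson's at 95%. Python 3.11.15 and scipy 1.17.1 were used, and the linear model was tested on simulated data.

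The genes named are the members, the 4 genes with the largest changes among those called in each list, the 5 genes most like each member (some of which are not reported here), and a few given whatever their value. Further genes of the lists, such as Foxo3, Nobox and Tle6, were named after their values were seen. The members and lists were chosen with earlier results of these data known. Alternatives were other scalings, pseudocounts, filters, variance models and read minimums, and leaving out each library.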

Additional observations from a re-analysis of the deposited data

How the results depend on the processing

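Of the members' log2 changes under the alternatives, 251 kept their direction and their side of the threshold, 10 passed it where the reported test had not, 7 lost it and 2 changed sign. Zp2 from 10–30 to 40–45 µm was -0.02 without further scaling, and Zp1 from 10–30 to 60–65 µm ran from -0.0925 to 0.24 when 1 library was left out. The cause was not tested.

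From 10–30 to 60–65 µm 1 member was called, against 2 with upper-quartile scaling, 2 with a trimmed mean over the tested genes only (an alternative chosen after seeing the data), 0 with no filter on low values and 1 to 2 without 1 library. From 40–45 to 60–65 µm 2 were called, against 1 without further scaling, 0 with no filter and 1 to 3 without 1 library. From 10–30 to 40–45 µm 0 were called, against 0 to 1 without 1 library. Over any size class 1 was called, against 0 with no filter, 2 with no variance trend and 1 to 2 without 1 library.

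The labels do not say that the letters A and B mark a shared batch. The A minus B differences correlated across genes among 10–30, 40–45 and 50–55 µm (r from 0.594 to 0.671), and with 60–65 µm r was -0.22, -0.0228 and 0.114, so the pairing was not taken as given. With the letter as a replicate block, 1 member was called from 10–30 to 40–45 µm, 2 from 10–30 to 60–65 µm, 3 from 40–45 to 60–65 µm and 3 over any size class. The calls gained were Zp1 from 10–30 to 40–45 µm (limma adjusted p = 0.00939), Zp3 from 10–30 to 60–65 µm (adjusted p = 0.0205), Zp1 from 40–45 to 60–65 µm (adjusted p = 0.0133), and over any size class Zp1 (adjusted p = 0.0120) and Zp3 (adjusted p = 0.0149). Tcf3 (-0.30, limma adjusted p = 0.0177) and Furin (1.20, limma adjusted p = 0.0143) were then called from 10–30 to 60–65 µm as well.

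Without the 10 other genes of highest mean RPKM, the members' share was 2.59, 2.72, 2.30 and 1.88% over the 4 classes. PBAT at the start of Zp3 was 5.75% with a minimum of 1 read and 16.5% within 500 bases, and over its body 27.2% with a minimum of 10 reads. RRBS at the start of Zp3 in the 40–45 µm library A was 40.9% with a minimum of 1 read, where 3 further cytosines with 5 calls in all enter the mean. No value could be had for the start of Zp2 at the depth used, or for the starts of Zp1 and Zp3 and the body of Zp2 with a minimum of 10 reads. With 1 PBAT library, depth and not replicates sets the precision of the methylation values.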
